A study of Mus musculus with 2 samples.

Results

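The cadherin genes *Cdh2*, *Cdh9*, *Cdh11*, *Cdh13* and *Cdh19* were followed through the stroma of the mouse mammary gland at puberty and in the adult virgin. They are 5 of 33696 listed genes, were taken by their symbols, and had been selected on levels measured in the fibroblasts of these same libraries, so every level below is a description of these libraries. Stromal cells of wildtype female C57BL/6 mice had been sorted from the gland as negative for lineage markers and for CD24, and 1 single-cell library was available for each stage, puberty at 4 weeks and the virgin adult at 9 weeks, both marked replicate 2. The labels name no transgene and no treatment at either stage. Per the labels 2 females contributed to each condition, but they do not make clear whether each library pools both, and animals cannot be told apart within a library. With 1 library per stage there was no replicate check, no test across samples was possible, and stage and library cannot be told apart.

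Cadherins are calcium-dependent adhesion proteins that hold cells together, mostly by binding the same cadherin on a neighbouring cell, and their cytoplasmic tails connect through catenins to actin. Fibroblasts lack the E-cadherin of epithelium and use other members, of which N-cadherin (*Cdh2*, a classical type I cadherin) and cadherin-11 (*Cdh11*, a type II cadherin first described in osteoblasts) are the best known. *Cdh9* and *Cdh19* also encode type II cadherins, the former studied mainly at synapses and the latter in Schwann cells and their neural crest precursors, whereas *Cdh13* encodes T-cadherin, which has no cytoplasmic tail, is anchored in the membrane by a lipid and binds adiponectin.

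In the GENCODE M21 annotation of the mouse genome (GRCm38, mm10), whose identifiers match the deposited ones, *Cdh9* (ENSMUSG00000025370) lies at chr15:16728756-16857094 on the plus strand and *Cdh19* (ENSMUSG00000047216) at chr1:110888326-110977584 on the minus strand. *Cdh11* (ENSMUSG00000031673) and *Cdh13* (ENSMUSG00000031841) both lie on chromosome 8, at chr8:102632095-102785642 on the minus strand and chr8:118283733-119324921 on the plus strand. Genes counted in the libraries that overlap a member lie on the opposite strand. They held between 0 and 12 UMIs in the cells of a library that had a *Pdgfra* UMI. Annotated genes on the same strand that overlap *Cdh11*, *Cdh13* and *Cdh19* were not counted in the libraries. Whether their reads entered the levels of these members was not tested.

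At puberty 21688 cell barcodes carried 255274670 unique molecular identifiers (UMIs, 1 per captured transcript), and in the adult 23183 barcodes carried 259549498. The libraries shared 145 barcodes, 0.669% and 0.625% of each. Cells with at least 500 genes and at most 10% mitochondrial UMIs numbered 21534 and 22972, of which 18878 (87.7%) and 20999 (91.4%) had a UMI of *Pdgfra*, the fibroblast receptor gene that sets the main gate here. In these *Pdgfra*+ cells all 5 fibroblast markers (*Pdgfra*, *Dcn*, *Lum*, *Col1a1* and *Col1a2*) were detected, at a summed 30436 and 25433 UMIs per 1000000 UMIs (CPM), while lists for mural, endothelial, epithelial, immune, Schwann and skeletal muscle cells summed to between 1.07 and 44.0 CPM. The median *Pdgfra*+ cell had 12187 UMIs at puberty and 11265 in the adult.

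Within the *Pdgfra*+ cells, 6 overlapping gates were set by marker UMIs, namely *Pi16* with *Dpp4*, *Gdf10* or *Fmo2*, *Thbs4* or *Bmp5*, at least 2 UMIs of *Fabp4*, *Crabp1*, and *Tenm2* with *Spp1*. *Pi16*+*Dpp4*+ cells made up 74.1% of *Pdgfra*+ cells at puberty and 42.2% in the adult, and *Crabp1* cells 1.53% and 12.7%. *Tenm2*+*Spp1*+ cells were rare in both libraries, 42 and 70 cells, with median depths of 7267 and 7202 UMIs. Of the *Pdgfra*+ cells, 5823 and 7505 met 2 or more gates and 704 and 2502 met none. *Pdgfra*-negative cells with *Myh11* or *Rgs5* (783 and 457 cells), genes of smooth muscle and pericytes, served for comparison and are called mural-marker cells. Their median depth was lower, 6334 and 6126 UMIs, so shares of positive cells are given after thinning each cell of at least 3000 UMIs to 3000. Levels are sums of UMIs over a gate divided to CPM, with exact 95% intervals in parentheses that cover counting error only. CPM of 3′ tags is not scaled to transcript length, and levels are compared between cells and stages, not between genes.

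Across all *Pdgfra*+ cells, *Cdh9*, *Cdh11* and *Cdh19* were higher in the adult library, and *Cdh2* and *Cdh13* were lower. *Cdh9* stood at 27.3 CPM at puberty and 51.0 CPM in the adult, a ratio of 1.87 (1.81 to 1.92). *Cdh11* stood at 134 and 330 CPM, a ratio of 2.46 (2.43 to 2.49). The third gene that was higher, *Cdh19*, was sparse, with 477 and 1453 UMIs in all *Pdgfra*+ cells, or 2.02 and 5.87 CPM, a ratio of 2.91 (2.62 to 3.24). *Cdh2* went from 10.7 CPM at puberty to 7.57 CPM in the adult, a ratio of 0.709 (0.668 to 0.753). *Cdh13* went from 33.9 to 23.6 CPM, a ratio of 0.696 (0.673 to 0.720). The median gene had a log2 adult-to-puberty ratio of 0.13, and with scaling factors from the trimmed mean of M-values (TMM) the same 5 ratios were 1.69, 2.23, 2.64, 0.643 and 0.631. Of the 4 members with at least 10 CPM in a library, *Cdh11* alone was at least 2-fold higher in the adult, against 4.4% of 8645 genes, and none was at least 2-fold lower, against 1.86%. These are 380 and 161 genes, or 290 and 233 with TMM scaling, and together 6.26% of the genes. The members were chosen with this contrast in view, so nothing is read from that count.

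**Figure D1:**
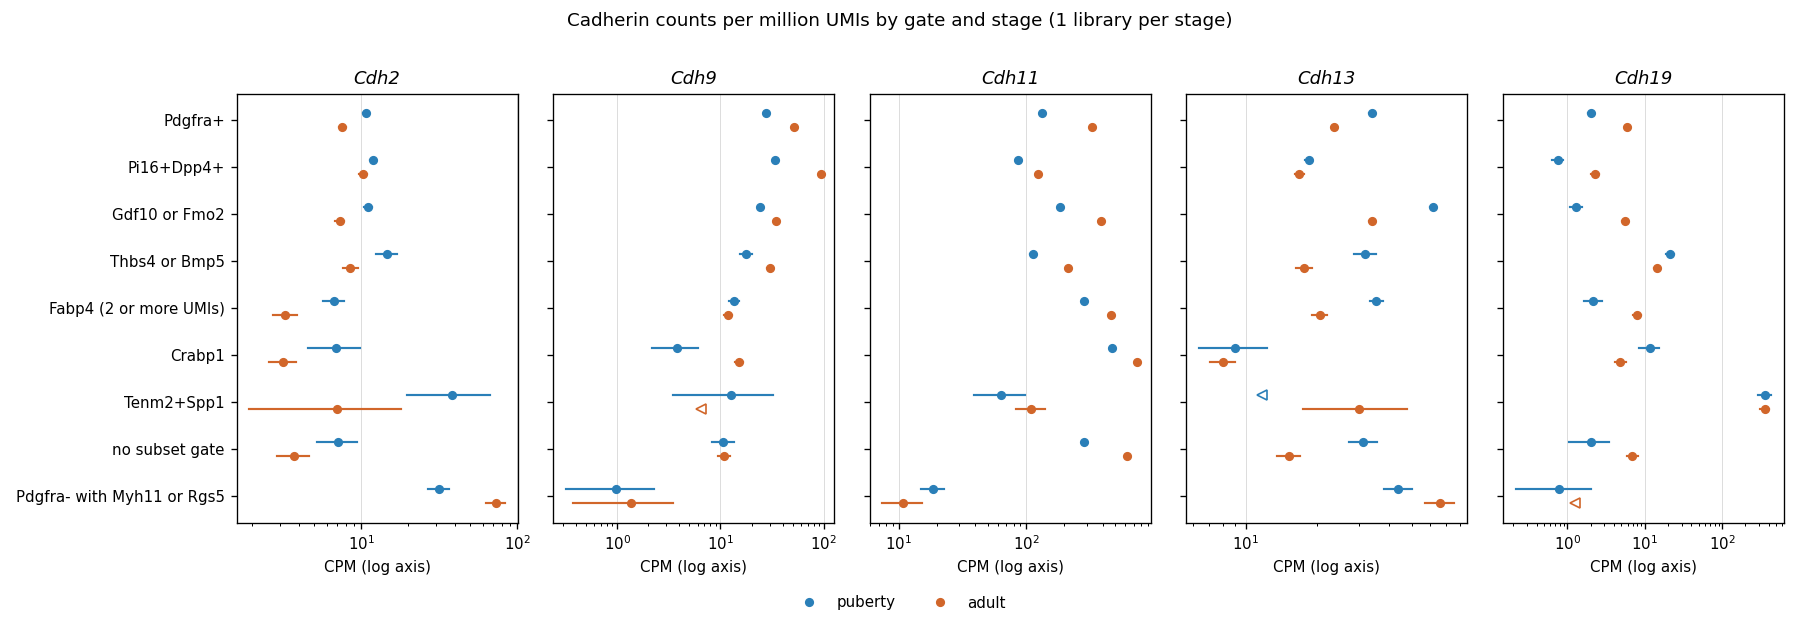
CPM of each cadherin (log axis, own range per panel) in all *Pdgfra*+ cells, the 6 gates inside them, the cells in no gate and the *Pdgfra*-negative cells with *Myh11* or *Rgs5*. Points are sums over 1 library per stage, lines are exact 95% Poisson intervals, and open triangles stand at the upper limit where no UMI was counted. *Cdh9* is highest in *Pi16*+*Dpp4*+ cells (33.6 and 93.1 CPM), *Cdh11* in *Crabp1* cells (474 and 746 CPM) and *Cdh19* in *Tenm2*+*Spp1*+ cells (356 and 357 CPM).

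*Cdh9* was concentrated in *Pi16*+*Dpp4*+ cells at both stages, and there it was 2.77-fold (2.69 to 2.86) as high in the adult library as at puberty. In that gate it stood at 33.6 CPM (32.8 to 34.5) at puberty and 93.1 CPM (91.4 to 94.9) in the adult, against 6.55 and 10.8 CPM in the other *Pdgfra*+ cells. For scale, 2.98% of 8463 genes were at least 2-fold higher in the adult in that gate. The gate was thus 5.13-fold (4.61 to 5.72) and 8.63-fold (8.16 to 9.14) above the other cells, where 5.24% and 5.18% of genes were at least 2-fold higher in the gate. It held 94.5% of the *Cdh9* UMIs of *Pdgfra*+ cells at puberty and 89.2% in the adult. Neither marker alone came with this level: cells with *Pi16* but no *Dpp4* stood at 5.19 and 8.58 CPM and cells with neither at 4.09 and 6.73 CPM, whereas cells with *Dpp4* but no *Pi16* stood at 13.1 and 21.7 CPM.

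The order of *Cdh9* levels below that gate was the same at both stages for the next 2 gates, *Gdf10* or *Fmo2* at 24.0 and 34.3 CPM and *Thbs4* or *Bmp5* at 17.7 and 30.2 CPM. Much of this came from shared cells. Without the *Pi16*+*Dpp4*+ cells the *Gdf10* or *Fmo2* gate had 6.47 and 12.6 CPM and the *Thbs4* or *Bmp5* gate 6.53 and 15.4 CPM, an alternative chosen after the data were seen. In the *Fabp4* gate *Cdh9* stood at 13.6 CPM at puberty and 11.9 CPM in the adult, and this ratio of 0.873 had an interval that holds 1 (0.757 to 1.01). *Crabp1* cells had 16 UMIs, or 3.77 CPM (2.16 to 6.13), at puberty and 494 UMIs, or 15.2 CPM (13.9 to 16.6), in the adult, where 1 cell held 110 of them. Without the *Pi16*+*Dpp4*+ cells among them *Crabp1* cells had 2.03 and 2.67 CPM, and the interval of that ratio, 1.32 (0.575 to 3.71), holds 1. *Tenm2*+*Spp1*+ cells had 4 UMIs in 42 cells at puberty and none in 70 adult cells, which allows up to 6.48 CPM. Neighbours in the order whose intervals overlapped were the *Fabp4* gate and the cells of no gate (10.6 and 10.9 CPM) in both libraries, with the *Tenm2*+*Spp1*+ cells between them at puberty, the *Crabp1* and mural-marker cells at puberty, and the mural-marker and *Tenm2*+*Spp1*+ cells in the adult.

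Among *Pdgfra*-negative cells *Cdh9* was near 0 in mural-marker cells and had few or no UMIs in the smaller groups with markers of other cell types. Mural-marker cells held 5 and 4 UMIs, or 0.980 and 1.36 CPM, with the 4 adult UMIs in 1 cell. *Pdgfra*-negative cells with Schwann markers (51 and 50 cells) held none, which allows up to 19.3 and 10.2 CPM. Those with endothelial markers (16 and 60 cells) also held none, which allows up to 27.8 and 17.9 CPM. At puberty that limit is as high as the level of all *Pdgfra*+ cells, so these few cells do not establish a low level. The remaining *Pdgfra*-negative cells, 1759 and 1288 in number, were different and held 358 and 805 *Cdh9* UMIs, or 27.9 CPM (25.1 to 31.0) and 103 CPM (96.1 to 110). They carried the 5 fibroblast markers at a summed 26088 and 19725 CPM at lower median depths of 7513 and 4878 UMIs, and 90.5% and 91.6% of their *Cdh9* UMIs lay in cells with both *Pi16* and *Dpp4*. A cell without a *Pdgfra* UMI was thus not always a cell without *Cdh9*. After thinning, 5.51% (5.19 to 5.85) of pubertal and 8.78% (8.40 to 9.17) of adult *Pdgfra*+ cells had a *Cdh9* UMI, against 0.138% and 0% of mural-marker cells. In *Pi16*+*Dpp4*+ cells the share was 6.86% at puberty and 17.1% in the adult. The share of cells and the level thus moved the same way in this gate.

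*Cdh9* also followed the amount of *Pi16*, but to different ends in the 2 libraries. In adult *Pdgfra*+ cells it stood at 11.3 CPM in cells without *Pi16*, 17.0 CPM at 1 to 2 UMIs, 44.2 CPM at 3 to 9, 113 CPM at 10 to 29 and 127 CPM (123 to 130) at 30 or more. At puberty the same bins had 6.87, 12.2, 30.2, 35.8 and 32.4 CPM, so the upper 3 bins lay close together. The median depth per bin ranged from 9656 to 13830 UMIs in the adult and from 11387 to 13453 UMIs at puberty, and its part in the profile was not tested.

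**Figure D2:**
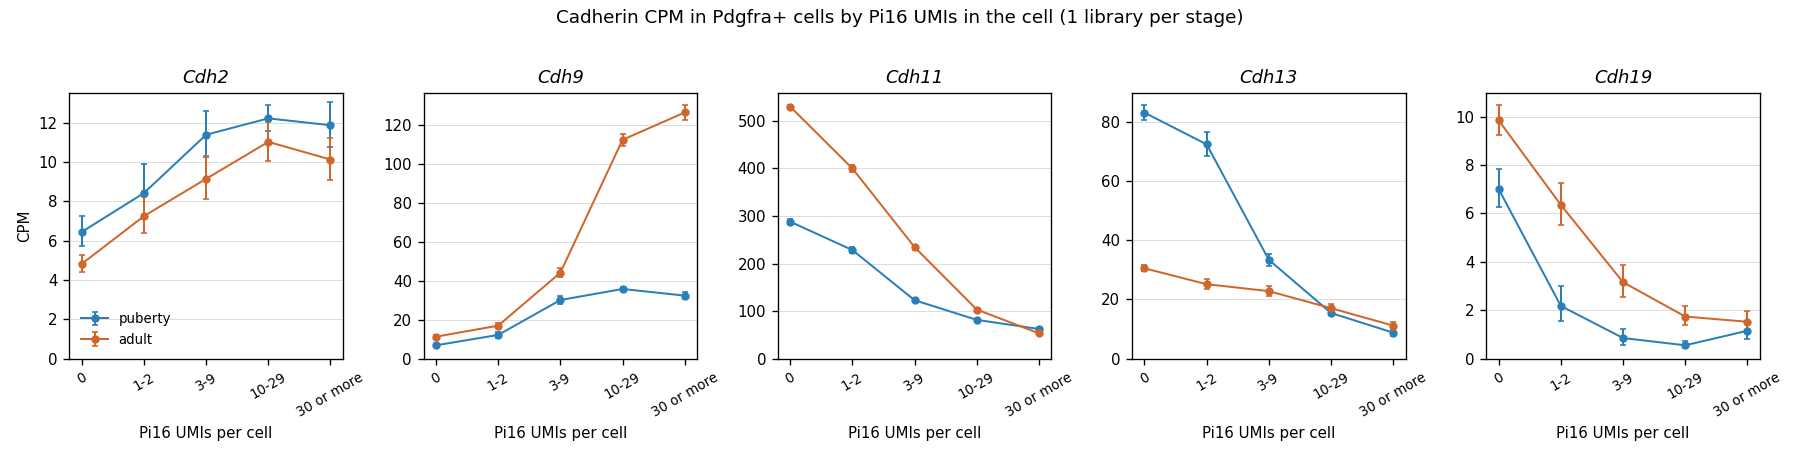
Cadherin CPM (linear axis from 0, own range per panel) in *Pdgfra*+ cells binned by the number of *Pi16* UMIs in the cell. Points are sums over 1 library per stage with exact 95% Poisson intervals. Adult *Cdh9* goes from 11.3 to 127 CPM over the bins while *Cdh11* goes from 530 to 53.2 CPM, and the pubertal profiles of both are flatter.

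A small number of cells carried many *Cdh9* UMIs. Of the positive *Pdgfra*+ cells, 65.4% at puberty and 47.8% in the adult had a single UMI, but 84 and 159 cells had 10 or more, up to 96 and 110. These cells held 26.1% and 29% of the *Cdh9* UMIs of *Pdgfra*+ cells, and 83 of the 84 and 153 of the 159 were *Pi16*+*Dpp4*+. Leaving them out, a choice made after the data were seen, gave a stage ratio of 1.80.

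*Cdh11* ran opposite to *Cdh9*: it was lowest among the large gates in *Pi16*+*Dpp4*+ cells and highest in *Crabp1* cells. *Crabp1* cells stood at 474 CPM (454 to 495) at puberty and 746 CPM (736 to 755) in the adult, a ratio of 1.57 (1.5 to 1.65). *Pi16*+*Dpp4*+ cells stood at 86.2 CPM and 124 CPM, a ratio of 1.43 (1.40 to 1.47). This was 0.294-fold (0.287 to 0.30) and 0.235-fold (0.231 to 0.239) the level of the other *Pdgfra*+ cells. Between these ends lay the *Fabp4* gate with 286 and 464 CPM, the *Gdf10* or *Fmo2* gate with 184 and 389 CPM and the *Thbs4* or *Bmp5* gate with 113 and 212 CPM. *Pdgfra*+ cells of no gate stood at 286 and 619 CPM, level with the *Fabp4* gate at puberty and second only to *Crabp1* cells in the adult. *Tenm2*+*Spp1*+ cells, at 63.6 CPM (38.8 to 98.2) and 109 CPM (83.5 to 140), could not be separated from *Pi16*+*Dpp4*+ cells by counting error.

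After thinning to equal depth, *Cdh11* UMIs were present in 24.6% of the pubertal and 44.9% of the adult *Pdgfra*+ cells, against 2.75% and 2.41% of mural-marker cells. The share reached 68.4% (62.7 to 73.7) and 83.8% (82.3 to 85.2) in *Crabp1* cells and 17.6% and 19.5% in *Pi16*+*Dpp4*+ cells. Before thinning, 97.0% of adult *Crabp1* cells had a *Cdh11* UMI. Most cells of that gate thus had the gene's RNA.

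With rising *Pi16* the level of *Cdh11* was lower in every bin of both libraries, from 288 CPM without *Pi16* to 62.4 CPM at 30 or more UMIs at puberty, and from 530 to 53.2 CPM in the adult. In the *Thbs4* or *Bmp5* gate the markers parted: adult cells with *Thbs4* but no *Bmp5* stood at 395 CPM of *Cdh11*, cells with *Bmp5* but no *Thbs4* at 137 CPM and cells with both at 55.5 CPM. The pubertal values of the same 3 groups were 160, 97.6 and 60.1 CPM. Cells with both markers had intervals that overlapped between the stages, and the *Thbs4*-only cells did not.

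The stage difference of *Cdh11* over all *Pdgfra*+ cells depended on which gates the cells filled. In cells that met the *Pi16*+*Dpp4*+ gate and no other, *Cdh11* was slightly lower in the adult, 67.6 against 59.9 CPM, a ratio of 0.887 (0.852 to 0.924), whereas cells only in the *Gdf10* or *Fmo2* gate went from 269 to 429 CPM, a ratio of 1.59 (1.54 to 1.64). Cells of 1 gate only (by gate), of 2 or more gates together and of none were then weighted by the same shares in both libraries. The weights were each group's mean share of UMIs, and the mix within the cells of 2 or more gates was not adjusted. This brought the *Cdh11* ratio from 2.46 to 1.76. The same weighting took *Cdh9* from 1.87 to 2.55, and in cells only in the *Pi16*+*Dpp4*+ gate *Cdh9* went from 32.9 to 122 CPM, a ratio of 3.71 (3.57 to 3.87). For *Cdh19* it gave 1.87 in place of 2.91, for *Cdh2* 0.790 in place of 0.709 and for *Cdh13* 0.578 in place of 0.696.

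**Figure D3:**
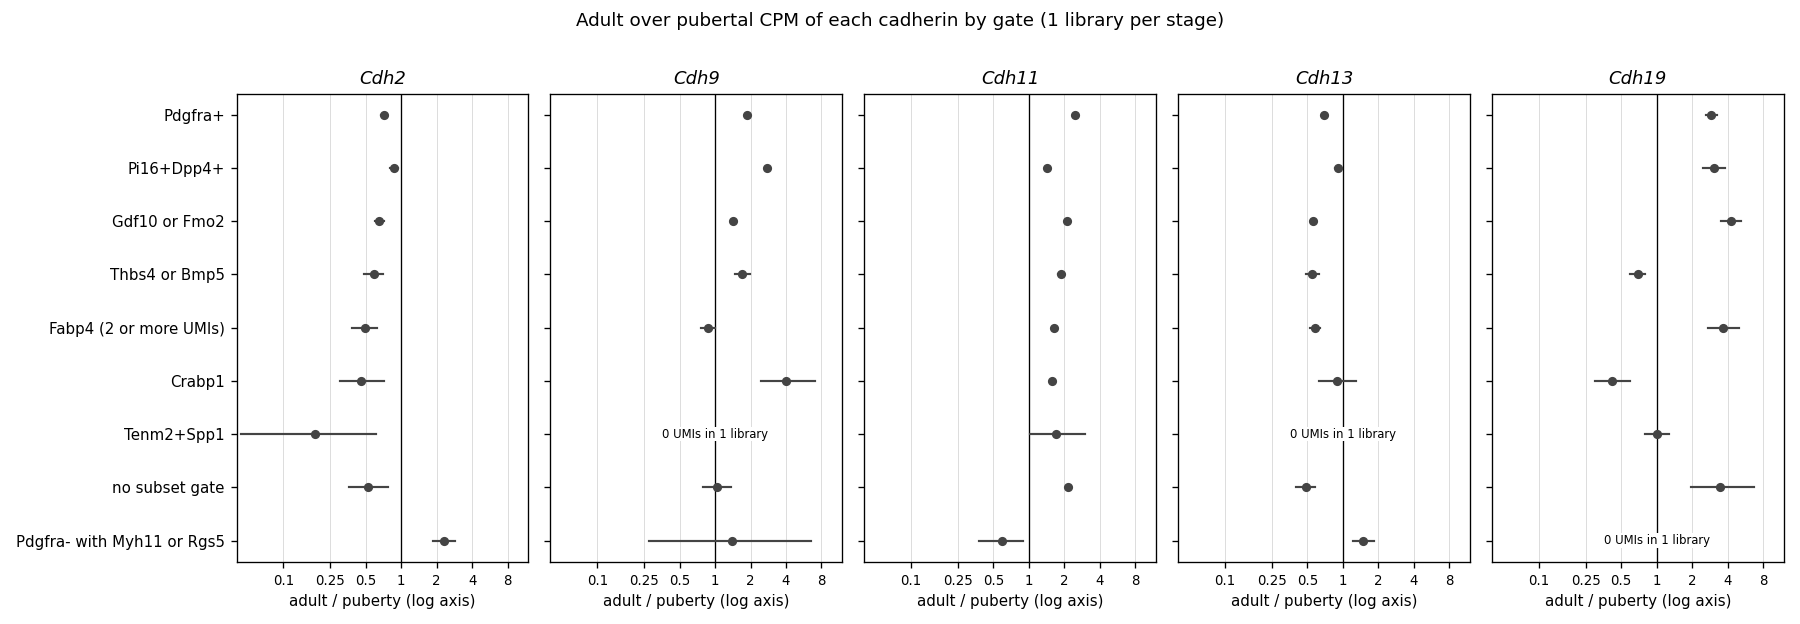
Ratio of adult to pubertal CPM of each cadherin (log axis) by gate, with conditional 95% binomial intervals for counting error, and with no ratio drawn where a library had 0 UMIs. *Cdh11* lies above 1 in all 6 gates inside the *Pdgfra*+ cells (though at 0.887 in cells of the *Pi16*+*Dpp4*+ gate and no other), *Cdh9* ranges from 0.873 in the *Fabp4* gate to 4.03 in *Crabp1* cells (1.32 without those that were also *Pi16*+*Dpp4*+), and *Cdh19* lies below 1 in *Thbs4* or *Bmp5* and in *Crabp1* cells.

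*Cdh19*, the Schwann-lineage cadherin, was highest among *Pdgfra*+ cells in the rare *Tenm2*+*Spp1*+ gate and at the same level there in both libraries. The gate held 112 UMIs in 42 cells at puberty and 203 UMIs in 70 cells in the adult, which is 356 CPM (293 to 429) and 357 CPM (309 to 409), with the ratio at 1.0 (0.791 to 1.27). The other *Pdgfra*+ cells stood at 1.54 and 5.06 CPM. Cells with *Tenm2* but no *Spp1* had 108 and 175 CPM and cells with *Spp1* but no *Tenm2* 109 and 72.1 CPM, so either marker went with *Cdh19* and both together with more. After thinning, 76.3% (59.8 to 88.6) and 69.1% (56.7 to 79.8) of these cells had a *Cdh19* UMI, against 0.138% and 0% of mural-marker cells.

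The *Tenm2*+*Spp1*+ cells were not the cells with Schwann markers. *Sox10*, a defining gene of Schwann cells, had 0 UMIs in the gate in both libraries, and all 5 Schwann markers together summed to 9.54 and 14.1 CPM. The 5 fibroblast markers summed to 61766 and 57370 CPM. *Pdgfra*-negative cells with at least 3 of the 5 Schwann markers were as few, 51 and 50 cells, and held *Cdh19* at 1829 and 444 CPM. At puberty those 51 cells had 35.5% of all *Cdh19* UMIs, and the *Pdgfra*+ cells 48.5%, while in the adult the figures were 9.48% and 85.5%. The adult cells of this kind also carried epithelial markers at a summed 5362 CPM, against 0 at puberty, so their 2 values do not describe the same mix of cells.

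Most *Tenm2*+*Spp1*+ cells, 92.9% and 90.0%, also met the *Thbs4* or *Bmp5* gate, where *Cdh19* was next highest with 21.1 and 14.5 CPM, a ratio of 0.688 (0.591 to 0.802). Leaving them out lowered this gate to 12.7 and 9.80 CPM, a ratio of 0.769 (0.634 to 0.938). Within the gate, cells with *Thbs4* but no *Bmp5* had most, 48.7 and 19.4 CPM. *Crabp1* cells had 11.6 and 4.84 CPM, but without the *Tenm2*+*Spp1*+ cells among them these became 2.86 and 3.86 CPM, a ratio of 1.35 (0.745 to 2.68). Both omissions were chosen after the data were seen.

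Elsewhere *Cdh19* was low and higher in the adult. The *Gdf10* or *Fmo2* gate had 1.3 and 5.55 CPM, a ratio of 4.25 (3.52 to 5.17), the *Fabp4* gate 2.15 and 7.91 CPM and the cells of no gate 1.99 and 6.93 CPM, and at neither stage could the last 2 be separated. *Pi16*+*Dpp4*+ cells had 0.753 CPM at puberty, against 0.784 CPM in mural-marker cells, whose 4 UMIs lay in 1 cell, and 2.30 CPM in the adult. Their thinned share at puberty, 0.166% (0.105 to 0.249) lay within the interval of the mural-marker share, 0.138% (0.00348 to 0.764), which rests on 1 cell, so the background could not be set apart.

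**Figure D4:**
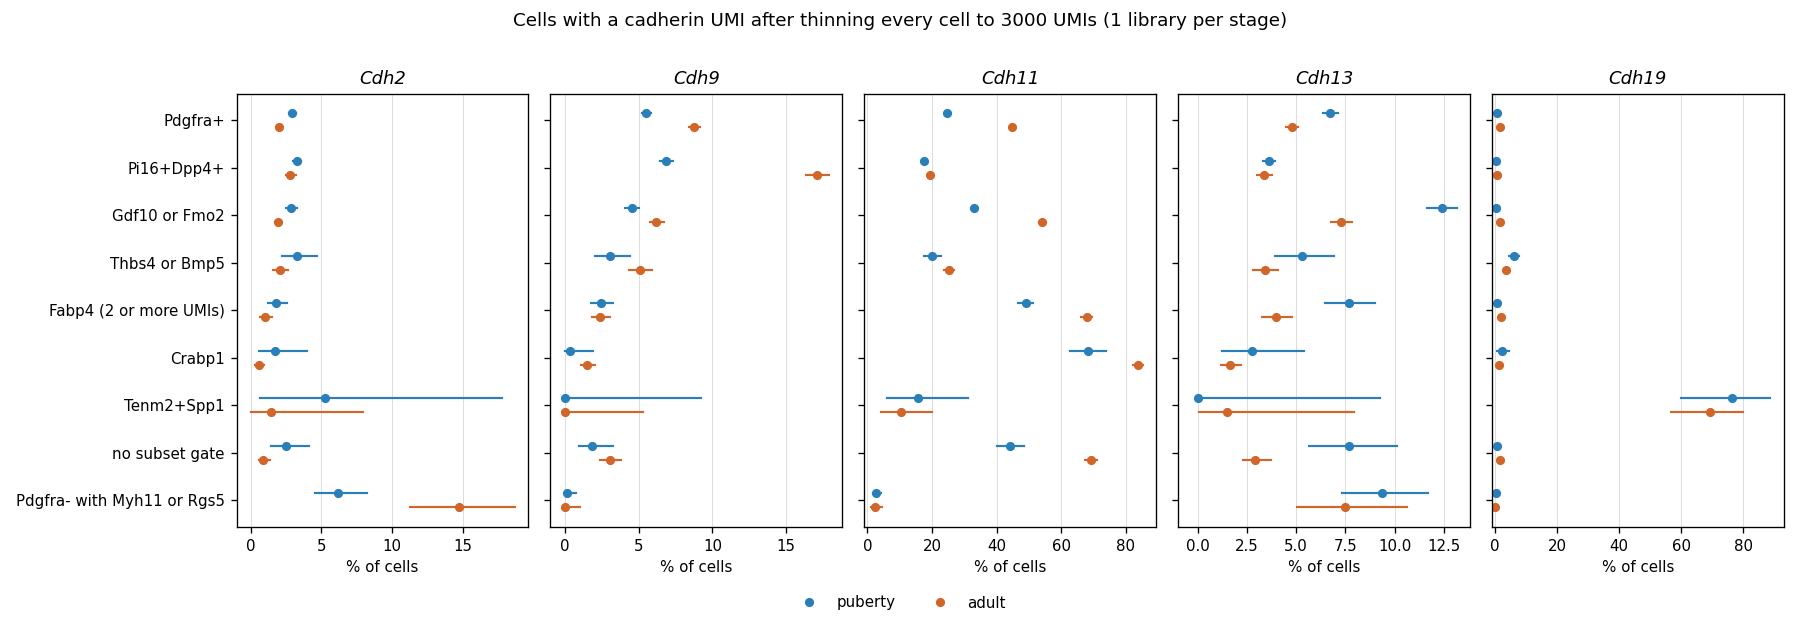
Percent of cells with a UMI of each cadherin (linear axis, own range per panel) by gate, after each cell with at least 3000 UMIs was thinned to 3000. Points are shares in 1 library per stage and lines are exact 95% Clopper-Pearson intervals. *Cdh9* reaches 17.1% in adult *Pi16*+*Dpp4*+ cells, *Cdh11* 83.8% in adult *Crabp1* cells and *Cdh19* 76.3% in pubertal *Tenm2*+*Spp1*+ cells.

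*Cdh2*, N-cadherin, was low in *Pdgfra*+ cells and stood higher in mural-marker cells, and its stage difference pointed opposite ways in these 2 groups. The few *Pdgfra*-negative cells with Schwann markers (51 and 50 cells) had 157 CPM (106 to 224) and 33.1 CPM (17.1 to 57.8). These levels came from 30 and 12 UMIs, and the mix of these cells differed between the libraries, as given for *Cdh19*. Mural-marker cells had 31.4 CPM (26.7 to 36.6) at puberty and 72.6 CPM (63.2 to 83.0) in the adult, a ratio of 2.31 (1.88 to 2.86). The make-up of these cells also differed between the libraries. Epithelial markers summed to 34.9 CPM at puberty and 610.0 CPM in the adult, endothelial markers to 58.8 and 103 CPM and fibroblast markers to 3361 and 1130 CPM. Without the cells that had a UMI of an endothelial or epithelial marker, a choice made after the data were seen, the *Cdh2* ratio was 2.44 (1.94 to 3.07). Most of the adult UMIs were in cells with *Rgs5*, a pericyte gene. Cells with *Rgs5* and no *Myh11* had 129 and 200 CPM, cells with both had 38.1 and 118 CPM, and cells with *Myh11* alone had 22.8 and 17.5 CPM. The adult mural-marker cells were also richer in *Rgs5* cells without *Myh11*, 65 of 457 against 27 of 783.

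Among *Pdgfra*+ cells the adult level of *Cdh2* was below the pubertal level in all 6 gates, from a ratio of 0.868 (0.809 to 0.931) in *Pi16*+*Dpp4*+ cells to 0.459 (0.302 to 0.720) in *Crabp1* cells, apart from the *Tenm2*+*Spp1*+ cells, where only 12 and 4 UMIs were counted and the ratio was 0.184. In cells that met the *Pi16*+*Dpp4*+ gate and no other the ratio was 1.04 (0.944 to 1.15). At puberty the *Tenm2*+*Spp1*+ cells (38.2 CPM, 19.7 to 66.7) overlapped the mural-marker cells. Their 12 UMIs lay in 5 cells, with 8 in 1 cell. The order below was *Thbs4* or *Bmp5* with 14.6 CPM, *Pi16*+*Dpp4*+ with 11.8 CPM and *Gdf10* or *Fmo2* with 11.1 CPM, the last 2 overlapping. In the adult *Pi16*+*Dpp4*+ cells led with 10.3 CPM (9.72 to 10.9). The *Fabp4* and *Crabp1* gates and the cells of no gate were lowest at both stages, at 6.66 to 7.05 CPM and 3.14 to 3.68 CPM, and overlapped each other.

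Shares of *Cdh2*-positive *Pdgfra*+ cells after thinning were 2.93% at puberty and 1.99% in the adult, with medians of 12187 and 11265 UMIs before thinning. Mural-marker cells had 6.19% and 14.7%. No gate used here marks cells known to lack N-cadherin, so the share that free RNA gives could not be set apart. Among the *Pdgfra*+ gates the lowest share was 0.566% (0.317 to 0.932), in adult *Crabp1* cells. Within counting error this value bounds the share from free RNA from above in that gate only. Other cells differed in depth before thinning, and whether the bound holds for them was not tested.

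*Cdh13*, T-cadherin, was led by the *Gdf10* or *Fmo2* gate among *Pdgfra*+ cells and was lower there in the adult. The gate stood at 61.2 CPM (59.7 to 62.8) at puberty and 34.0 CPM (33.0 to 35.1) in the adult, a ratio of 0.556 (0.535 to 0.578). It was 4.28-fold (4.07 to 4.51) and 2.66-fold (2.51 to 2.82) above the other *Pdgfra*+ cells. Cells with both markers carried most, 141 and 77.2 CPM, whereas cells with *Gdf10* alone had 23.8 and 15 CPM and cells with *Fmo2* alone 34.0 and 19.1 CPM. Cells with neither had 14.3 and 12.8 CPM, so the stage difference was small where the level was low.

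**Figure D5:**
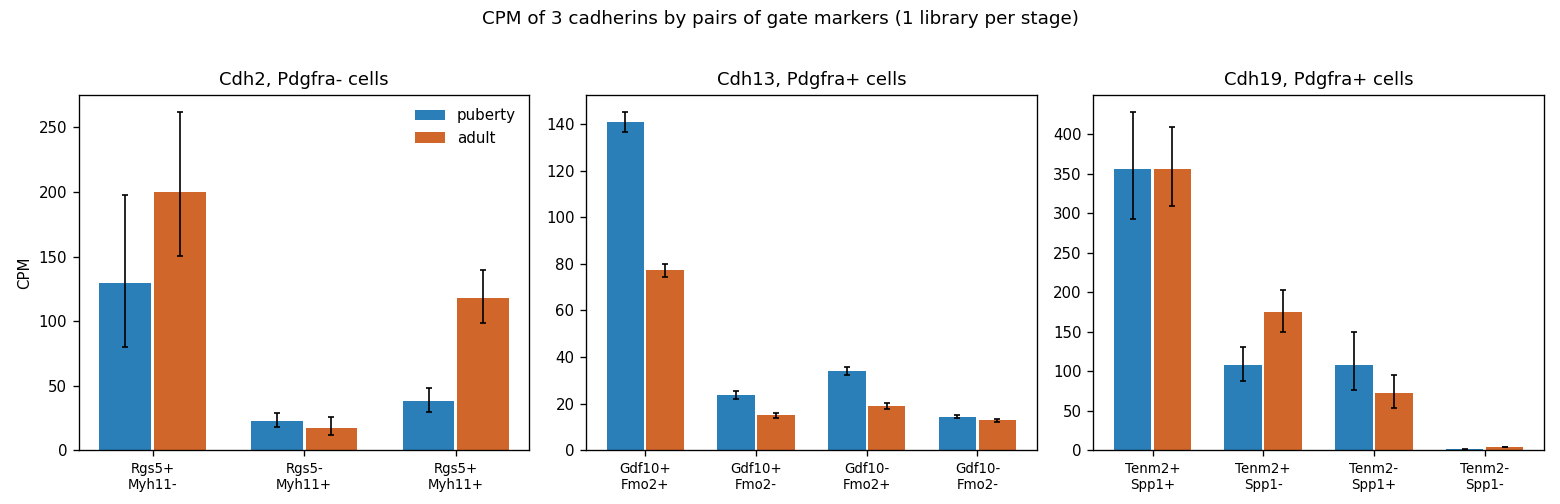
CPM (linear axis from 0) of *Cdh2* in *Pdgfra*-negative cells by *Rgs5* and *Myh11*, of *Cdh13* in *Pdgfra*+ cells by *Gdf10* and *Fmo2*, and of *Cdh19* in *Pdgfra*+ cells by *Tenm2* and *Spp1*. Bars are sums over 1 library per stage and error bars are exact 95% Poisson intervals. Cells with both *Gdf10* and *Fmo2* stand out for *Cdh13* (141 and 77.2 CPM), and cells with both *Tenm2* and *Spp1* for *Cdh19* (356 and 357 CPM).

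*Cdh13* was also lower in the adult in the *Thbs4* or *Bmp5* gate (31.8 and 17.6 CPM), in the *Fabp4* gate (35.5 and 20.5 CPM) and in cells of no gate (31.3 and 15.1 CPM), 3 groups whose pubertal intervals overlap. Cells of the *Thbs4* or *Bmp5* gate and no other had 7.80 and 8.95 CPM, a ratio of 1.15 (0.678 to 2.04). *Pi16*+*Dpp4*+ cells changed little, 18.4 and 16.8 CPM, a ratio of 0.914 (0.865 to 0.966), and those in no other gate had a ratio of 1.11 (1.01 to 1.2). *Crabp1* cells had least among the larger gates, 8.96 and 7.98 CPM, and the interval of their ratio holds 1 (0.632 to 1.29). *Tenm2*+*Spp1*+ cells had 0 UMIs at puberty, which allows up to 11.7 CPM, and 17 UMIs in the adult that lay in 2 cells.

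As with *Cdh2*, *Cdh13* in mural-marker cells went the other way, with 43.9 CPM (38.4 to 50.1) at puberty and 65.8 CPM (56.8 to 75.7) in the adult, 1.5-fold as much (1.23 to 1.82). Endothelial and epithelial markers moved with it, as given for *Cdh2*, and without the cells that carried one *Cdh13* stood at 35.2 and 53.3 CPM, a ratio of 1.51 (1.19 to 1.92). The ratio was nearer to 1 without doublets, 1.26 (1.01 to 1.58), and with at least 2 UMIs of *Myh11* or *Rgs5*, 1.26 (1.01 to 1.56). Small groups of *Pdgfra*-negative cells carried far more of it. Cells with skeletal muscle markers (56 and 133 cells) had 754 and 808 CPM, and cells with endothelial markers (16 and 60 cells) had 671 and 1600 CPM. At puberty these groups held 2.87% and 1.01% of all *Cdh13* UMIs, and in the adult 7.98% and 4.63%. After thinning, 6.74% and 4.78% of *Pdgfra*+ cells had a *Cdh13* UMI, against 9.35% and 7.49% of mural-marker cells and 1.62% of adult *Crabp1* cells.

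Few cells held UMIs of more than 1 member. In thinned *Pdgfra*+ cells, 64.4% at puberty and 43.5% in the adult had none of the 5, 31.0% and 51.4% had 1, and 4.35% and 4.81% had 2. No cell had all 5. In these thinned cells *Cdh2*, *Cdh9*, *Cdh13* and *Cdh19* were each found in at most 8.78%, and the part of low detection in the shares was not tested. *Cdh11* was found in 15.9% (14.3 to 17.7) of adult cells with *Cdh9* and in 47.6% (46.9 to 48.4) of adult cells without it. At puberty the shares were closer, 17.9% (15.6 to 20.4) and 25.0% (24.4 to 25.7). *Cdh13* was found in 9.98% of pubertal cells with *Cdh11* and 5.68% without, and in the adult in 4.66% and 4.87%. *Cdh9* was found in 15.6% (12.2 to 19.5) of adult cells with *Cdh2* and in 8.64% without.

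The other genes of the family and its partners were set beside the members, from lists taken whole. None of the 18 other classical and atypical cadherins examined reached 10 CPM over all *Pdgfra*+ cells of either library, and neither did the member *Cdh19*. Single groups of cells could hold more, as *Cdh6* had 25.5 and 12.4 CPM in *Crabp1* cells and 195 and 174 CPM in mural-marker cells. Over all *Pdgfra*+ cells *Cdh6* had 2.32 and 4.08 CPM and *Cdh4* 2.98 and 1.51 CPM, named here after their values were seen, and E-cadherin (*Cdh1*) 0.321 and 0.0646 CPM. Of 12 catenins and tail partners, 9 reached 10 CPM and none differed 2-fold, against 6.26% of 8645 genes. Their median log2 ratio was 0.22, against 0.13 over all genes. Nothing is read from 2-fold counts in lists this short. Beta-catenin (*Ctnnb1*) stood at 121 and 118 CPM, alpha-catenin (*Ctnna1*) at 200 and 215 CPM, p120-catenin (*Ctnnd1*) at 65.9 and 105 CPM and vinculin (*Vcl*) at 122 and 204 CPM, while afadin (*Afdn*) had 70.6 and 82.3 CPM. The tail partners were thus present at both stages, with *Ctnnd1* and *Vcl* the furthest apart of these 5, at ratios of 1.60 and 1.68.

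Protocadherin, Fat, Dachsous and Celsr genes encode larger relatives of the cadherins, and 10 of the 21 listed reached 10 CPM. Of these, 1 was at least 2-fold higher in the adult, against 4.4% of 8645 genes, and 1 at least 2-fold lower, against 1.86%. The former was *Dchs2*, with 5.60 and 28.6 CPM, a ratio of 5.10 (4.81 to 5.41), and the latter *Pcdh20*, with 59.7 and 26.4 CPM, a ratio of 0.443 (0.430 to 0.456). *Pcdh11x* lay just inside that bound with 59.9 and 30.1 CPM. *Pcdh7* (662 and 941 CPM), *Pcdh9* (466 and 519 CPM), *Pcdh18* (56.1 and 92.1 CPM), *Pcdh19* (85.7 and 102 CPM) and *Fat1* (56.5 and 69.7 CPM) were higher in the adult by less than 2-fold, and *Fat4* (86.9 and 71.1 CPM) was lower. The median log2 ratio of the 10 was 0.28. All 10 genes listed for cadherin processing reached 10 CPM and none differed 2-fold, against 6.26% of 8645 genes, with a median of -0.03. Among them the proprotein convertase gene *Pcsk5* had 606 and 396 CPM and *Pcsk6* 171 and 185 CPM. The sheddase genes *Adam9*, *Adam10* and *Adam17* lay between 83.8 and 114 CPM in both libraries.

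Genes whose log2(CPM + 1) was most like that of a member were sought among 8558 genes over 17 gate sums of at least 100 cells. The sums share 2 libraries and, because gates overlap, many cells, so the Pearson coefficients are descriptions. For *Cdh9* they were *Sqor* (0.966), *S100a13* (0.962) and *Naaa* (0.96), and for *Cdh11* *Penk* (0.979), *Tpst1* (0.978) and *Creg1* (0.976). *Cdh2* was nearest to *Trp53inp2* (0.929), *2900026A02Rik* (0.928) and *Map3k1* (0.917). For *Cdh13* they were *Cavin2* (0.928), *Polr1c* (0.920) and *Retreg1* (0.917), over sums that include the adult skeletal muscle cells where *Cdh13* was high. *Cdh19* was nearest to *Plxnc1* (0.898), *Rgs10* and *Creb3l2* (0.880 each), and the *Tenm2*+*Spp1*+ cells, too few for a sum, did not enter.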

How the data were processed

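Mouse mammary stromal cells were profiled with the droplet-based 10x Genomics GEM-X 3′ v4 kit per the labels, in 1 pubertal and 1 adult library. The authors deposited filtered matrices that hold raw counts of UMIs for each gene in each barcode, with no normalization, made with Cell Ranger 8.0.1 on mm10 per the submitters' processing notes. On the kit, the Cell Ranger release and the age at puberty the study's methods differ from the labels, which were followed. The gene annotation and whether intronic reads were counted are not given in the sources used here. Groups came from the labels, and no other replicate was analysed here.

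Cells were kept with at least 500 genes and at most 10% mitochondrial UMIs. A cell met a gate with at least 1 UMI of its markers (2 for *Fabp4*). Mural-marker cells were *Pdgfra*-negative with *Myh11* or *Rgs5*. Other *Pdgfra*-negative groups needed at least 3 of 5 Schwann markers (*Sox10*, *Mbp* and *S100b* among them) or endothelial markers (*Pecam1*, *Cdh5*, *Vwf*, *Emcn*, *Egfl7*), or 2 of 5 skeletal muscle markers (*Pax7*, *Myf5*, *Myod1*, *Des*, *Acta1*) with *Pax7*, *Myf5* or *Myod1* among them. Counts were summed over a gate and divided to CPM. Sums have exact Poisson intervals, ratios conditional binomial intervals and shares Clopper-Pearson intervals, all at 95% and for counting error only. A count of 0 is given with the upper limit of its Poisson interval. Cells with at least 3000 UMIs were thinned to 3000 without replacement for shares, which left out 336 pubertal and 426 adult *Pdgfra*+ cells. Background counts of 2-fold differences took genes that reached 10 CPM in a library.

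The members, gene lists and gates were chosen with earlier results of these data known. All 5 members were reported in every gate inside the *Pdgfra*+ cells and in mural-marker cells. In the other *Pdgfra*-negative groups only some members were reported. Of the lists the genes with at least 50 CPM in a library were reported, or with at least 10 CPM and 2-fold apart. The 3 genes most like each member had the highest Pearson correlation among genes with at least 20 CPM in a sum, gate markers left out. Some genes of these lists are not reported here by name. Doublets stayed in the values given. As an alternative the cells with the highest Scrublet scores (scanpy 1.11.5) were removed at 0.4% per 1000 barcodes, 8.68% and 9.27% of cells, where the caller's own threshold marked 2.68% and 3.44%. Other alternatives changed the cell filters, the gates, the thinning depth, the weight of cells and the scaling (TMM from edgeR 4.0.16 in R 4.3.3). Ratios were tested on simulated counts, and thinning was checked against expected sums in the pubertal library. Other steps used Python 3.11.15, numpy 2.4.6, scipy 1.17.1, pandas 2.3.3 and matplotlib 3.10.9.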

Additional observations from a re-analysis of the deposited data

Results flagged for a closer look

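Some members had stage ratios on opposite sides of 1 in different groups of cells, with counting intervals that did not hold 1. These differences were not tested, since each stage had 1 library. For *Cdh2* the adult-to-puberty ratio was 2.31 in mural-marker cells and 0.184 in *Tenm2*+*Spp1*+ cells. The latter came from 12 and 4 UMIs, with 8 of the 12 in 1 cell. For *Cdh11* it was 2.11 in the *Gdf10* or *Fmo2* gate and 0.585 in mural-marker cells, from 95 and 32 UMIs. The summed fibroblast markers of the mural-marker cells were 3361 and 1130 CPM, and their part in the lower *Cdh11* was not tested. With at least 2 UMIs of *Myh11* or *Rgs5* the ratio there was 1.12 (0.676 to 1.82). For *Cdh13* it was 1.5 in mural-marker cells and 0.553 in the *Thbs4* or *Bmp5* gate, where cells in no other gate gave 1.15 (0.678 to 2.04). Without doublets the *Cdh13* ratio in mural-marker cells was 1.26 (1.01 to 1.58). For *Cdh19* it was 4.25 in the *Gdf10* or *Fmo2* gate and 0.418 in *Crabp1* cells, where the ratio without *Tenm2*+*Spp1*+ cells was 1.35 (0.745 to 2.68).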

How the results depend on the processing

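No paired analysis was possible because each stage had 1 library, and no library could be left out. In *Pdgfra*+ cells the direction of all 5 stage ratios held under each alternative tried. TMM scaling gave 0.643 for *Cdh2*, 1.69 for *Cdh9*, 2.23 for *Cdh11* and 0.631 for *Cdh13*. The same weights in both libraries for cells of 1 gate only, 2 or more gates and no gate changed all 5 ratios. They became 0.790 for *Cdh2*, 2.55 for *Cdh9*, 1.76 for *Cdh11*, 0.578 for *Cdh13* and 1.87 for *Cdh19*. The mean of each cell's CPM gave 1.70 for *Cdh9*, 2.75 for *Cdh11* and 2.53 for *Cdh19*. *Cdh11* was 2.50 without doublets and 2.56 without cells that had a marker of another cell type. With at least 2 *Pdgfra* UMIs *Cdh11* was 2.40 and *Cdh13* 0.662. Leaving out cells with 10 or more UMIs of the member gave 1.80 for *Cdh9* and 1.86 for *Cdh11*, and leaving out *Tenm2*+*Spp1*+ cells gave 3.28 for *Cdh19*, both chosen after seeing the data. Ratios of thinned shares, 1.59 for *Cdh9*, 1.82 for *Cdh11*, 0.709 for *Cdh13* and 2.59 for *Cdh19*, became 2.01, 2.95, 0.579 and 1.78 when 2 UMIs were required. Thinning to 1500 UMIs gave 2.08 for *Cdh11*, and thinning to 5000 gave 1.58 for *Cdh11* and 3.71 for *Cdh19*. With a minimum of 50 CPM, 155 genes were at least 2-fold higher in the adult and 82 lower.

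Inside the gates some directions turned, and the cause was not tested. Stage ratios in cells of exactly 1 gate became 1.04 for *Cdh2*, 0.887 for *Cdh11* and 1.11 for *Cdh13* in the *Pi16*+*Dpp4*+ gate and 1.15 for *Cdh13* in the *Thbs4* or *Bmp5* gate. With gates set on thinned cells they became 1.01 for *Cdh2* (*Pi16*+*Dpp4*+), 0.904 for *Cdh9* (*Crabp1*), 0.260 for *Cdh11* (*Tenm2*+*Spp1*+) and 1.04 for *Cdh13* (*Thbs4* or *Bmp5*). In mural-marker cells *Cdh11* became 1.12 with 2 UMIs of a marker. Without doublets *Cdh11* was 0.874 in *Tenm2*+*Spp1*+ cells, and without *Tenm2*+*Spp1*+ cells *Cdh19* was 1.35 in *Crabp1* cells. Ratios of a gate to the other *Pdgfra*+ cells turned when *Pi16*+*Dpp4*+ cells were left out, to 1.60 and 1.54 for adult *Cdh9* in the *Gdf10* or *Fmo2* and *Thbs4* or *Bmp5* gates, to 0.988 (puberty) and 0.903 (adult) for *Cdh11* in the *Gdf10* or *Fmo2* gate, to 0.945 for adult *Cdh11* and 0.954 for adult *Cdh19* in the *Fabp4* gate. Adult *Cdh19* in the *Gdf10* or *Fmo2* gate became 1.11 with 2 UMIs of each marker, 1.14 in cells of exactly 1 gate and 1.16 without *Tenm2*+*Spp1*+ cells. In cells of exactly 1 gate, adult *Cdh19* in the *Fabp4* gate was 0.923 and pubertal *Cdh11* in *Tenm2*+*Spp1*+ cells 1.44. The full *Tenm2*+*Spp1*+ gate held 42 and 70 cells, and the values given for it here rest on parts of these. Its cells of exactly 1 gate numbered 2 at puberty and 5 in the adult, so the 1.44 rests on 2 cells. *Pi16*+*Dpp4*+ and *Tenm2*+*Spp1*+ cells were left out by a choice made after seeing the data.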
